A study of Mus musculus with 7 samples.

Results

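The miR-17~92 cluster is a set of 6 miRNA hairpins in one primary transcript on mouse chromosome 14, and its mature products were measured here in p53-null mouse sarcoma cells before and after depletion of Rb. All rows of the normalized miRNA table that come from these hairpins were taken, whichever arm they name, which gave 9 of the 252 mouse miRNAs in the table. The guide arms, which are the strands mainly loaded into Argonaute, were mmu-miR-17, mmu-miR-18a, mmu-miR-19a, mmu-miR-19b, mmu-miR-20a and mmu-miR-92a, written without the mouse prefix hereafter. The other 3 rows were the star arms miR-17*, miR-18a* and miR-20a*, which come from the opposite side of their hairpins. The other arm of the miR-19a hairpin was on the array and was detected on 0 of 7 arrays.

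The cells came from soft tissue sarcomas of p53-knockout mice, and every group therefore lacks p53. Control primary cells (2 arrays) carried a lentiviral non-target shRNA, and Rb-depleted primary cells (2 arrays) an shRNA against Rb, and both were selected with puromycin at 2 µg/ml and grown as monolayers. Rb-depleted secondary cells (3 arrays) were the Rb-shRNA cells recovered from spheres, which had formed over 10 to 14 days in serum-free methylcellulose with B27, EGF and bFGF, and were passaged once as a monolayer. No array held control cells taken through spheres, so selection by sphere culture and the passage cannot be told apart from Rb status in the secondary cells. A single shRNA sequence was used against Rb, and the array carries no mRNA probe that could check the knockdown. Apart from these arrays, the paper measured Rb by RT-qPCR in p53-null sarcoma cells carrying its vectors.

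Each array hybridized Cy3-labelled miRNA from 100 ng of total RNA, and the values below are the deposited quantile-normalized log2 signals. The series describes 2 or 3 independent experiments per condition. The scanner software detected 258 to 287 of the 696 mouse miRNAs on each array, and every one of the 9 cluster miRNAs was detected on all 7 arrays. All 6 probe sets for mesenchymal miRNAs (miR-199a, miR-214, miR-143 and miR-145) were detected on 7 of 7 arrays, whereas the 9 for the epithelial miR-200 family with miR-141 and the 5 for haematopoietic miRNAs were detected on none. Of the 2 endothelial probe sets, that of miR-126-5p was detected on none, and that of miR-126-3p on the 4 primary arrays at signals of 7.02 to 10.7 and on 0 of 3 secondary arrays. This faint marker thus moved with the secondary cells, and its part in the changes given for them was not tested. Of the 5 muscle probe sets only that of miR-206 was detected on all arrays, at a signal of 12.9 to 47.0. All 4 primary arrays shared a slide with secondary replicate 1, and secondary replicates 2 and 3 lay on another slide.

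Rb holds E2F transcription factors inactive, and E2F and Myc are known activators of the host gene of this cluster. Its miRNAs are known to promote proliferation and survival in tumours. miR-17 and miR-20a are known to repress E2F1, a negative feedback on their own activator. The comparisons below address whether the products of 1 transcript moved together when Rb was depleted, and whether guide and star arms of a hairpin moved alike.

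In the GENCODE annotation of NCBIM37, the build named in the scanner files, all 6 hairpins lie on the plus strand of chromosome 14 in exon 2 of the noncoding transcript Mir17hg-001. The cluster spans 836 bases at chr14:115442893-115443728, and its first hairpin starts 792 bases after the annotated start of Mir17hg. The mature sequences are given by RefSeq (GRCm38.p6) and are shown because the seed, bases 2 to 8 in capitals, decides which targets a miRNA can pair with. The first set holds the 9 measured members.
miR-17: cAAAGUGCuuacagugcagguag
miR-20a: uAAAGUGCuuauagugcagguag
miR-18a: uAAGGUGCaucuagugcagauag
miR-19a: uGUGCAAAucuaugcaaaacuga
miR-19b: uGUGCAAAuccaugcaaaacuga
miR-92a: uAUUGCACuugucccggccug
miR-17*: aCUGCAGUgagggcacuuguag
miR-18a*: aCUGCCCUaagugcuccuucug
miR-20a*: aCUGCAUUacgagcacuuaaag

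The 6 guide arms fall into 4 seeds. miR-17 and miR-20a share one seed and differ at 2 of 23 bases, C1U and C12U, counted from the 5′ end with the base of miR-17 first. miR-19a and miR-19b share another and differ at 1 base, U11C, with the base of miR-19a first. The 3 star arms have a seed each, none of them shared with another miRNA among the 198 of the table that have a sequence in RefSeq.

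**Figure D1:**
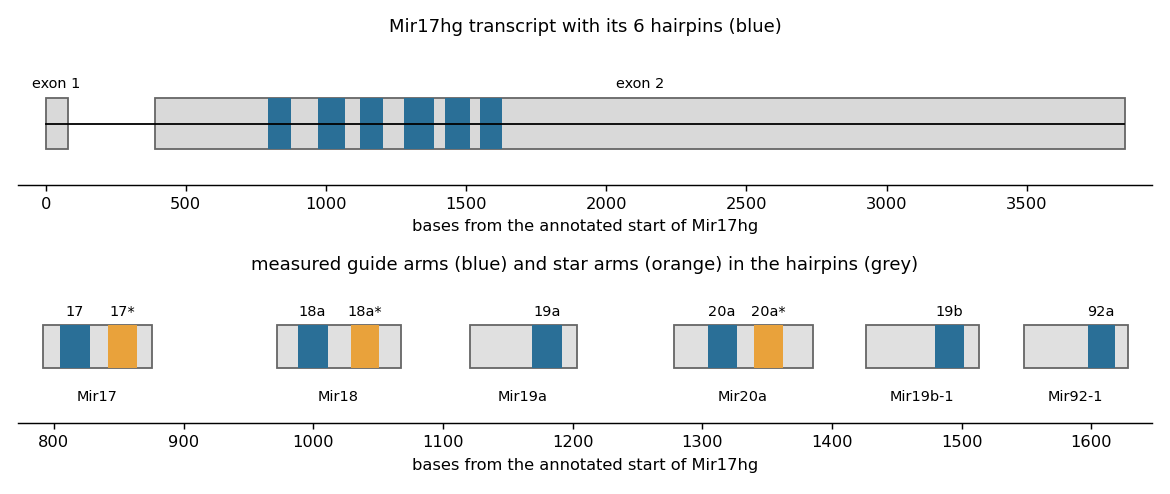
The upper map shows the annotated Mir17hg transcript, with exons in grey and the 6 hairpins in blue, by distance in bases from its annotated start. The lower map enlarges the hairpins and marks the measured guide arms (blue) and star arms (orange); 3 hairpins carry both arms in the table.

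Some members could not be assigned to chromosome 14 alone. The mature miR-19b sequence was found in Mir19b-1 at chr14:115443580-115443602 and again in Mir19b-2 on the minus strand at chrX:50095168-50095190. The mature miR-92a sequence was found in Mir92-1 at chr14:115443698-115443718 and in Mir92-2 on the minus strand at chrX:50095031-50095051. The products of this cluster and of the related cluster on the X chromosome cannot be told apart in the signals of miR-19b and miR-92a. Of that X cluster, miR-18b, miR-363, the 3′ arm of miR-20b and the 5′ arm of the second miR-92a hairpin were detected on 0 of 7 arrays, while miR-20b was bright. The other 7 members were found at 1 place each among the hairpins searched: the cluster and its related clusters on chromosomes X and 5. miR-106a of the X cluster differs from miR-17 at 1 of 23 bases and is not on the array. Its part in the miR-17 signal was not tested.

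A window of 300 bases, 250 before and 50 after the annotated start of Mir17hg, was searched on both strands for 4 forms of the E2F site (TTCCCGC first, TTGGCGC next, TTCGCGC after it and TTGCCGC last) and for the E-box CACGTG. It held 0 matches to the E2F forms, which 9.57% of 32851 RefSeq promoters of the same length hold. It held 1 match to the E-box, 10 bases after the start, and 7.15% of those promoters hold one. The window had a GC content of 43.3%. These are matches of letters at an annotated start, which may not be the start used in these cells. Other starts were not searched, and binding was not measured.

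The members spanned a wide range of signal, in the same broad order in every group. In control primary cells the mean normalized log2 signal was 11.51 for miR-19b, 11.04 for miR-20a, 10.45 for miR-92a, 9.60 for miR-19a and 9.30 for miR-18a. Below these came miR-17* at 6.79 and miR-17 at 6.74, then miR-20a* at 4.05 and miR-18a* at 3.79. The arrays of miR-17* and miR-17 overlapped in control cells, as did those of miR-20a* and miR-18a*, so neither order held beyond the spread. In Rb-depleted primary cells miR-18a and miR-19a overlapped as well, with means of 9.46 and 9.41. Brightness on an array depends on the probe, so a gap between different miRNAs is not a ratio of molecules. The scanner's own error was 7.13% to 10.0% of the signal for the guide arms and 7.84% to 8.64% for miR-17*. It was larger for the faint star arms, up to 17% for miR-18a* and 12.6% for miR-20a*.

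Depletion of Rb in primary cells was accompanied by slightly higher signals of most members, and none of the 9 passed the test. Of the 9 members, 7 were higher in both Rb-depleted primary arrays than in both control arrays: miR-17, miR-17*, miR-18a, miR-18a*, miR-20a, miR-20a* and miR-92a. Arrays of these groups did not overlap, on the higher side, for 31% of the 252 miRNAs. The exceptions were miR-19a and miR-19b. By limma, with p-values adjusted over the 252 miRNAs by Benjamini-Hochberg, 0 of 9 members had an adjusted p under 0.05, where 1.59% of all miRNAs did. At an unadjusted p under 0.05, 3 of 9 were higher (miR-17*, miR-20a* and miR-92a), against 10.7% of all miRNAs. The median log2 change of the 9 members was 0.28, and that of all miRNAs 0.01.

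miR-17 read 6.68 and 6.79 on the control arrays, 7.08 and 6.96 on the Rb-depleted primary arrays, and 6.57, 6.88 and 6.74 on the secondary arrays. Both Rb-depleted primary arrays lay above all other arrays, and the secondary arrays spread around the control arrays. Its log2 change in Rb-depleted primary cells was 0.28 (SE 0.12, adjusted p = 0.232 by limma). In secondary cells its change from control was -0.0039, with a 95% interval from -0.29 to 0.28. The secondary arrays did not overlap the Rb-depleted primary arrays, and the change between them was -0.29 (SE 0.11, adjusted p = 0.121 by limma).

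miR-20a, which shares the miR-17 seed, read 10.95 and 11.13 on the control arrays, 11.27 and 11.16 on the Rb-depleted primary arrays, and 10.98, 11.34 and 11.27 on the secondary arrays. The Rb-depleted primary arrays lay just above the control arrays, and secondary replicate 1 lay between the control arrays. Its log2 change against control was 0.18 in Rb-depleted primary cells (SE 0.15, adjusted p = 0.488 by limma). In secondary cells it was 0.16 (SE 0.13, adjusted p = 0.443 by limma), and neither passed the threshold.

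miR-18a, whose seed differs from the miR-17 and miR-20a seed at G4A (the base of miR-18a first), was among the members that passed in secondary cells. It read 9.25 and 9.34 on the control arrays, 9.44 and 9.48 on the Rb-depleted primary arrays, and 9.57, 9.66 and 9.63 on the secondary arrays. The groups did not overlap and stood in that order. Against control, the log2 change was 0.16 in Rb-depleted primary cells (SE 0.08, adjusted p = 0.268 by limma) and 0.33 in secondary cells (SE 0.07, adjusted p = 0.0323 by limma), a fold of 1.25 with a 95% interval from 1.10 to 1.42.

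miR-92a, whose known targets include the pro-apoptotic Bim, read 10.38 and 10.52 on the control arrays, 10.69 and 10.80 on the Rb-depleted primary arrays, and 10.66, 10.84 and 10.80 on the secondary arrays. All 5 Rb-depleted arrays lay above both control arrays. Its log2 change amounted to 0.30 in Rb-depleted primary cells (SE 0.10, adjusted p = 0.155 by limma) and 0.32 in secondary cells (SE 0.10, adjusted p = 0.0659 by limma), and neither passed the threshold.

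**Figure D2:**
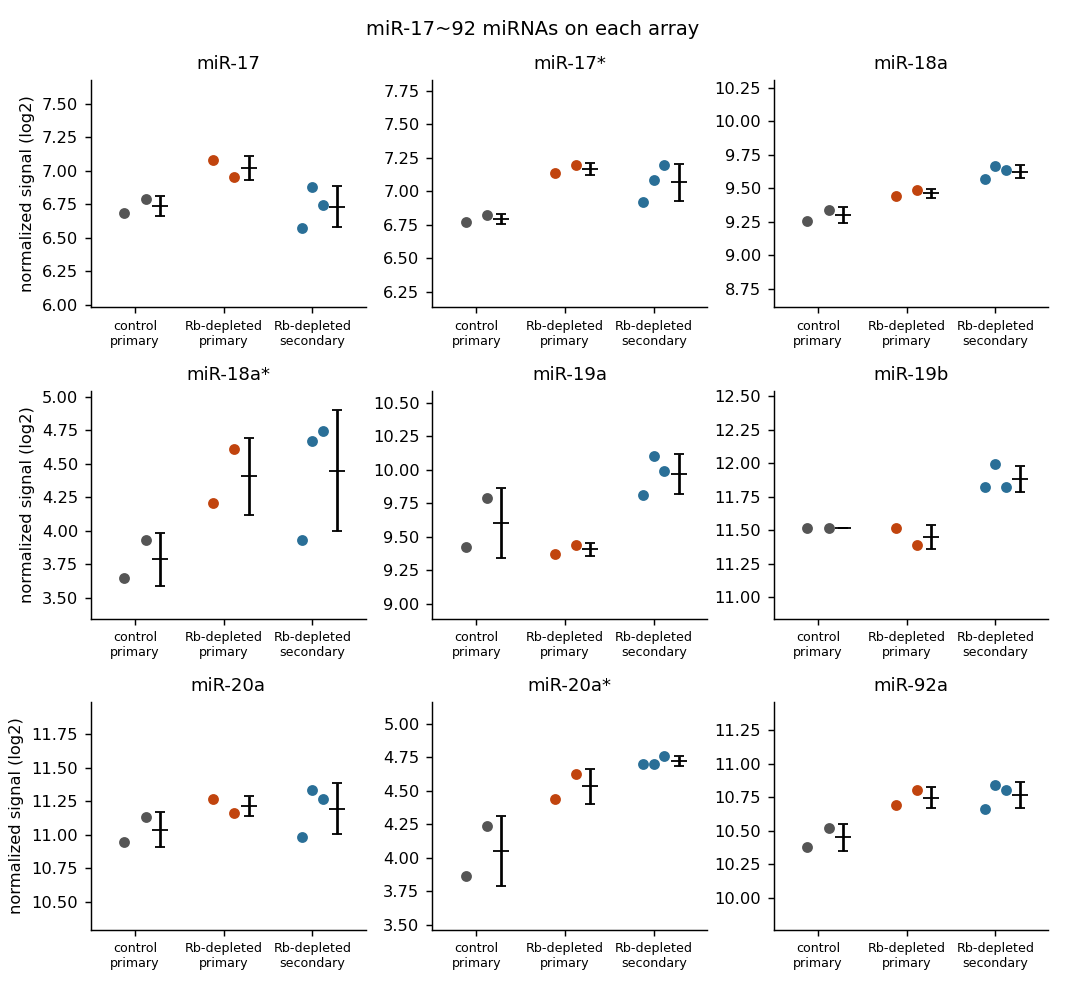
Normalized log2 signal (vertical axis, the same span of 1.7 in each panel) of the 9 members on each array of control primary (grey), Rb-depleted primary (red) and Rb-depleted secondary cells (blue), with mean and SD in black. For miR-19a and miR-19b the secondary arrays lie above the Rb-depleted primary arrays; miR-17 is highest in the Rb-depleted primary arrays.

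The miR-19 pair followed another course in the normalized values. There neither of its members was higher in Rb-depleted primary cells than in control, and both rose from Rb-depleted primary to secondary cells. miR-19a read 9.42 and 9.79 on the control arrays, 9.37 and 9.44 on the Rb-depleted primary arrays, and 9.81, 10.10 and 9.99 on the secondary arrays. The control arrays spread more than the difference to Rb-depleted primary cells, which was -0.20 on the log2 scale (SE 0.16, adjusted p = 0.479 by limma). All 3 secondary arrays lay above the 4 primary arrays. The log2 change from Rb-depleted primary to secondary cells was 0.56 (SE 0.15, adjusted p = 0.0476 by limma), a fold of 1.48 with a 95% interval from 1.15 to 1.90. Against control primary cells the change of 0.36 did not pass (SE 0.15, adjusted p = 0.137 by limma).

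miR-19b read 11.51 and 11.51 on the control arrays, 11.51 and 11.39 on the Rb-depleted primary arrays, and 11.82, 11.99 and 11.82 on the secondary arrays. The repeated values come from the normalization, which gives the same number to equal ranks. The scanner signals were 3179 and 3624 on the control arrays, 3257 and 2679 on the Rb-depleted primary arrays, and 3107, 3155 and 3149 on the secondary arrays. On these signals the 2 Rb-depleted groups overlapped. Rb-depleted primary cells did not differ from control beyond the spread (log2 change -0.06, SE 0.10, adjusted p = 0.706 by limma), and this sign changed with the scaling, to 0.04 and 0.18 under scaling to the 75th percentile of the table's or of all mouse miRNAs. In the normalized values miR-19b rose in secondary cells, by 0.37 against control (SE 0.09, adjusted p = 0.0398 by limma) and by 0.43 against Rb-depleted primary cells (SE 0.09, adjusted p = 0.0307 by limma). Without normalization these changes were -0.11 and 0.087.

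Over the comparison of secondary with control primary cells, 3 of 9 members rose (miR-18a, miR-19b and miR-20a*) and 0 fell, where 22.6% of all 252 miRNAs were called, 13.1% higher and 9.52% lower. The median log2 change of the members was 0.33, and that of all miRNAs 0.03. Between the Rb-depleted groups 2 of 9 members rose, miR-19a and miR-19b, and 0 fell, where 20.2% of all miRNAs were called, 12.7% higher and 7.54% lower. The median change there was 0.04 over the members and 0.02 over all miRNAs. These comparisons share arrays, so their values for a member are not independent of each other.

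**Figure D3:**
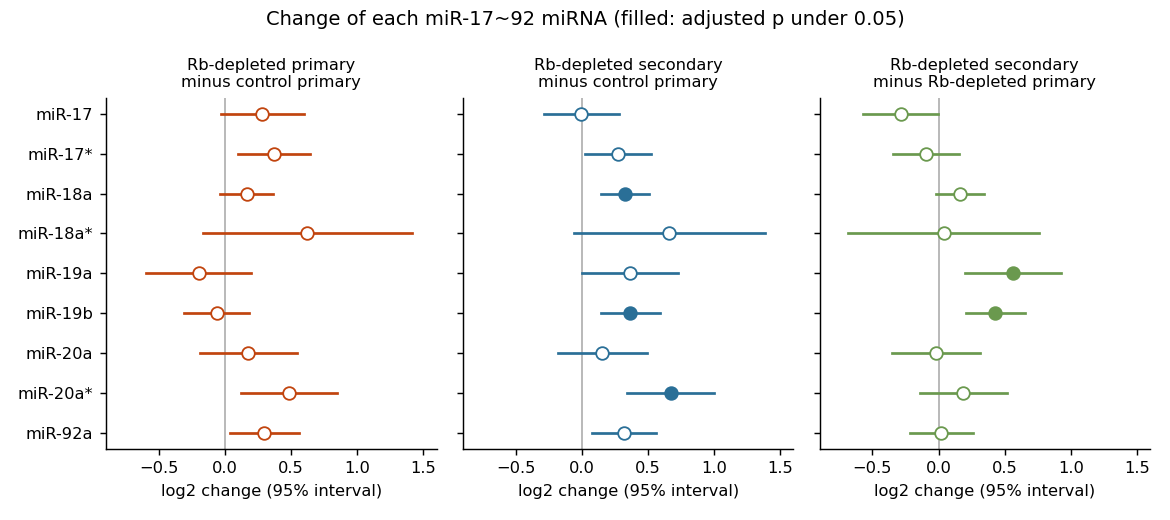
Log2 change (horizontal axis) of each member in the 3 comparisons, as points with 95% intervals from limma; filled points have an adjusted p under 0.05. In the left panel 0 of 9 points are filled, in the middle miR-18a, miR-19b and miR-20a*, and in the right miR-19a and miR-19b.

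In the normalized values the 3 star arms were the members furthest above control in Rb-depleted primary cells, an order that changed with the scaling: scaled to the 75th percentile of the table's miRNAs, miR-92a at 0.36 lay above miR-20a* at 0.28 and miR-17* at 0.26. miR-20a* read 3.86 and 4.24 on the control arrays, 4.44 and 4.63 on the Rb-depleted primary arrays, and 4.70, 4.70 and 4.76 on the secondary arrays, and the groups did not overlap. Its log2 change was 0.48 in Rb-depleted primary cells (SE 0.14, adjusted p = 0.141 by limma). In secondary cells it rose by 0.67 (SE 0.13, adjusted p = 0.0246 by limma), a fold of 1.59 with a 95% interval from 1.27 to 2.00.

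miR-17* read 6.77 and 6.82 on the control arrays, 7.13 and 7.20 on the Rb-depleted primary arrays, and 6.92, 7.08 and 7.20 on the secondary arrays. All Rb-depleted arrays lay above the control arrays. The log2 change amounted to 0.37 in Rb-depleted primary cells (SE 0.11, adjusted p = 0.141 by limma) and 0.27 in secondary cells (SE 0.10, adjusted p = 0.117 by limma). miR-18a* was the most variable member, with readings of 3.64 and 3.93 on the control arrays, 4.20 and 4.61 on the Rb-depleted primary arrays, and 3.93, 4.67 and 4.74 on the secondary arrays. Secondary replicate 1 equalled a control array. Its scanner signal of 12.07 was that of its brightest probe alone, whereas on every other array the signal summed that probe and a fainter one. The fainter probe read 4.86 on secondary replicate 1 and was left out there, so this low reading is not like for like. The changes against control of 0.62 and 0.66 had standard errors of 0.32 and 0.29 (adjusted p = 0.275 and 0.158 by limma).

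The difference between the arms of a hairpin on the same array is unchanged by any scaling factor per array, though not by quantile normalization. For miR-20a it stood at 7.08 and 6.89 on the control arrays, 6.83 and 6.53 on the Rb-depleted primary arrays, and 6.28, 6.63 and 6.50 on the secondary arrays. The control arrays lay above all Rb-depleted arrays. The difference was lower than in control by 0.31 on the log2 scale in Rb-depleted primary cells (change -0.31, exact permutation p = 0.333, two-sided). In secondary cells the change was -0.52 (exact permutation p = 0.1, two-sided). These are the smallest p that 2 against 2 and 2 against 3 arrays can give, so no arm difference could pass 0.05 in this permutation test. On the scanner's signals before normalization both changes were smaller, at -0.03 and -0.21 (exact permutation p = 0.667 and 0.3, two-sided).

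For miR-17 the star arm read above the guide arm on every array. It stood at -0.09 and -0.03 on the control arrays, -0.05 and -0.24 on the Rb-depleted primary arrays, and -0.35, -0.20 and -0.45 on the secondary arrays. The secondary arrays lay below the control arrays, and the Rb-depleted primary arrays overlapped both. The change against control was -0.09 in Rb-depleted primary cells (exact permutation p = 0.667, two-sided) and -0.28 in secondary cells (exact permutation p = 0.2, two-sided). The same changes on the scanner's signals were -0.09 and -0.38 (exact permutation p = 0.667 and 0.1, two-sided). For miR-18a the arms stood apart by 5.61 and 5.41 on the control arrays, 5.23 and 4.87 on the Rb-depleted primary arrays, and 5.64, 4.99 and 4.89 on the secondary arrays, where replicate 1 stood above the control arrays. Its changes against control were -0.46 and -0.34 (exact permutation p = 0.333 and 0.4, two-sided). On the scanner's signals they were -0.21 and 0.05, the second of the opposite sign. Both the 5.64 and the 0.05 use the miR-18a* signal of secondary replicate 1, which left out a probe summed on the other arrays. The sign with that probe included was not tested. Over the 9 arm comparisons the adjusted p was 0.514 or above.

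**Figure D4:**
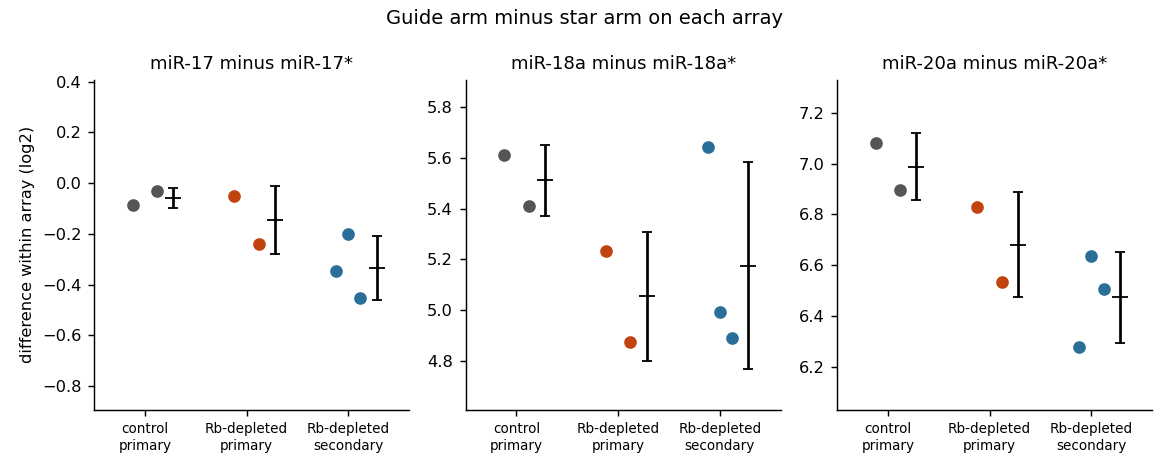
Guide arm minus star arm on the log2 scale (vertical axis) on each array for the 3 hairpins with both arms in the table, with group mean and SD in black; each panel spans 1.3. The miR-20a difference is highest in the control arrays, at 7.08 and 6.89, and the miR-17 difference is below 0 on all 7 arrays.

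The level of these changes rested on the normalization between arrays. Before it, miR-20a* had scanner signals of 20.6 and 24.5 on the control arrays, 24.1 and 22.3 on the Rb-depleted primary arrays, and 22.6, 20.7 and 22.6 on the secondary arrays, and the groups overlapped. miR-18a had signals of 731 and 786 on the control arrays, 790 and 675 on the Rb-depleted primary arrays, and 640, 753 and 693 on the secondary arrays. Without normalization the median log2 change of all 252 miRNAs was -0.26 in Rb-depleted primary and -0.46 in secondary cells against control, and -0.18 between the Rb-depleted groups. Against control, 5 of 9 members were then above 0 in Rb-depleted primary cells and 0 of 9 in secondary cells, while 8 of 9 were above the median of all miRNAs in both. Normalized changes are thus measured against the bulk of miRNAs. Of the called members, miR-19a was higher in secondary cells than in Rb-depleted primary ones on the scanner's signals as well, at 844, 961 and 912 against 729 and 675.

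Unnormalized, 2 of 9 members were above control without overlap in Rb-depleted primary cells (miR-18a* and miR-92a, against 6.35% of all miRNAs) and 1 was below it (miR-19a, against 57.9%). In secondary cells 0 of 9 were above control without overlap (5.16% of all miRNAs) and 4 were below it: miR-17, miR-19b, miR-20a and miR-92a (68.7% of all miRNAs). Each miRNA is read by 2 or more probes, and 17 of the 22 probes of the members had a signal over 3 times the scanner's error on all 7 arrays. The probes that fell short belonged to miR-18a* and miR-20a*. For miR-20a*, probe 1 read -1.91 to -0.62 and probe 2 read -0.66 to 0.48, each over that limit on 0 arrays. Centred on the median log2 signal of the array, 16 of these 17 probes were higher in Rb-depleted primary than in control cells, where 64.6% of the 463 such probes of all miRNAs in the table were. In secondary cells 16 of 17 were higher than in control (53.3% of all), and 8 of 17 were higher than in Rb-depleted primary cells (44.1% of all). In the first of these comparisons the exception was 1 of the 2 miR-19a probes, at -0.01, and the other miR-19a probe was at 0.01. Both probes of miR-17 were lower in secondary cells than in Rb-depleted primary ones, by -0.43 and -0.30, and both of miR-19a were higher, by 0.46 and 0.49. Those of miR-19b were higher there by 0.23 and 0.14, and already higher in Rb-depleted primary than in control cells, by 0.19 and 0.14.

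**Figure D5:**
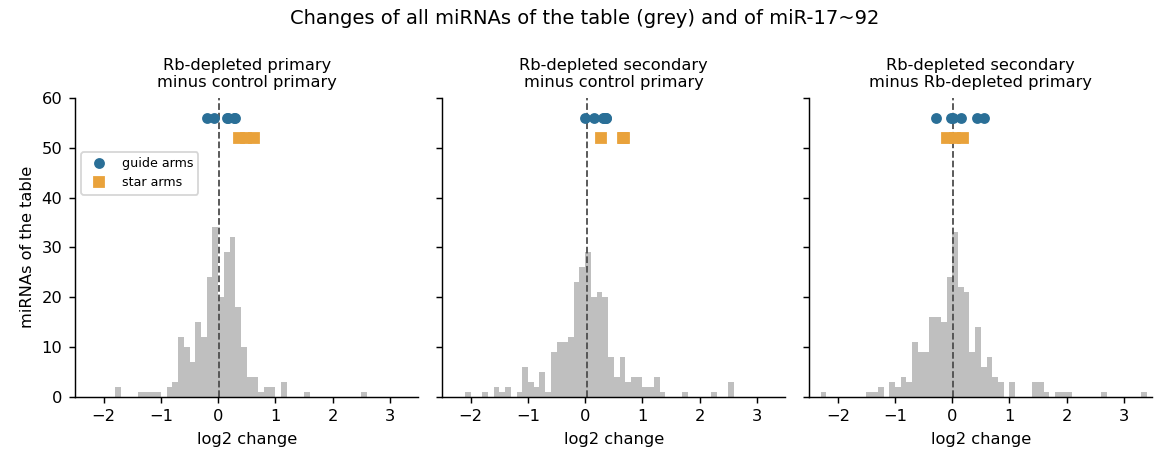
Histogram of the log2 changes of the 252 miRNAs of the table (grey, number of miRNAs on the vertical axis) in the 3 comparisons, with their median as a dashed line and the members as points above it (circles, 6 guide arms; squares, 3 star arms; the height of the points has no meaning). The 3 star arms lie to the right of the median in the left and middle panels.

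The selection used in the study, a test over the 3 groups followed by Dunnett's comparisons with control cells, was applied with limma's moderated statistics in place of its classical ones. The F-test passed at an adjusted p under 0.1 for 6 of 9 members (miR-17*, miR-18a, miR-19a, miR-19b, miR-20a* and miR-92a), where 43.3% of all miRNAs passed. Of these, miR-20a* alone was past both Dunnett comparisons in the same direction (adjusted p = 0.0300 for Rb-depleted primary and adjusted p = 0.00484 for secondary cells, by limma with Dunnett's adjustment), where 6.75% of all miRNAs were. miR-18a passed in secondary cells (adjusted p = 0.00893) and not in Rb-depleted primary cells (adjusted p = 0.148), both by limma with Dunnett's adjustment. With classical in place of moderated statistics the member past both was miR-18a, and miR-20a* missed the comparison of Rb-depleted primary cells. The paper, which used a one-way test and Dunnett's test, lists miR-18a among its selected miRNAs and does not list miR-20a*.

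The calls were close to the threshold. In fits that left out 1 array, the change of miR-18a in secondary against control cells kept an adjusted p under 0.05 in 1 of 7 (without secondary replicate 2, 0.0396 by limma) and had 0.0508 to 0.154 in the others. miR-19b against control kept it in 1 of 7 (without secondary replicate 2, 0.0397 by limma) and had 0.0514 to 0.169 in the others. miR-20a* kept it in 4 of 7, and lost it without control replicate 1, secondary replicate 1 or secondary replicate 3 (0.103, 0.0703 and 0.0655 by limma), with a change of 0.49 to 0.86 over the 7. For miR-19a between the Rb-depleted groups 0 of 7 kept it (0.0574 to 0.176 by limma), and for miR-19b 1 of 7 (without secondary replicate 2, 0.0311 by limma; 0.0580 to 0.145 in the others). Every one of these 5 changes stayed above 0 in the 7 fits.

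Slide moved with the secondary cells, and the values within the slide that held both primary groups and secondary replicate 1 are those of a fit with slide as a term. There the change in secondary against control cells was 0.27 for miR-18a, 0.31 for miR-19b and 0.65 for miR-20a* (adjusted p = 0.126, 0.171 and 0.125 by limma). The changes between the Rb-depleted groups were 0.40 for miR-19a and 0.37 for miR-19b (adjusted p = 0.231 and 0.150 by limma). All 5 stayed above 0, and none passed with 1 secondary array in the fit.

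miRNAs with the same seeds outside the cluster did not reach an adjusted p under 0.05 by limma in any comparison. They are printed because probes for near-identical sequences may share signal.
miR-20b: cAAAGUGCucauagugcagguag
miR-106b: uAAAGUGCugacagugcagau
miR-93: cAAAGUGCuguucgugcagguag
miR-25: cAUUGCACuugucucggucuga

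miR-20b, from the X cluster, differs from miR-20a at 2 bases (U1C and U10C, the base of miR-20a first) and from miR-17 at 2 (U10C and C12U, the base of miR-17 first). It read 10.27 and 10.27 on the control arrays, 10.31 and 10.52 on the Rb-depleted primary arrays, and 10.10, 10.52 and 10.47 on the secondary arrays. It lay above miR-17 by over 3 log2 units on every array while its own 3′ arm was not detected, and the part of cross-hybridization from miR-20a was not tested. miR-106b, miR-93 and miR-25 come from an intronic cluster on chromosome 5, itself a known E2F target with its host gene Mcm7. With miR-20b and miR-106b*, 5 related miRNAs were in the table, and 0 of 5 were called in each comparison by limma. At an unadjusted p under 0.05, 1 was higher in Rb-depleted primary cells than in control (miR-25; 10.7% of all miRNAs), 0 passed in secondary cells against control (36.5% of all), and 1 was lower in secondary cells than in Rb-depleted primary ones (miR-25; 17.9% of all). Against control, the median log2 change of the 5 amounted to 0.16 after Rb depletion in primary cells and to 0.13 in secondary cells, beside 0.28 and 0.33 for the cluster.

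miR-25, which has the seed of miR-92a, read 9.44 and 9.47 on the control arrays, 9.79 and 9.79 on the Rb-depleted primary arrays, and 9.66, 9.61 and 9.55 on the secondary arrays. The groups did not overlap, with the Rb-depleted primary arrays highest. Its changes against control were 0.33 in Rb-depleted primary cells (SE 0.08, adjusted p = 0.102 by limma) and 0.15 in secondary cells (SE 0.07, adjusted p = 0.172 by limma). In the study's selection with moderated statistics, miR-25 passed limma's F-test (adjusted p = 0.0585). With Dunnett's adjustment by limma it passed in Rb-depleted primary cells (adjusted p = 0.0101) and not in secondary cells (adjusted p = 0.124). The paper lists miR-25 among the miRNAs it selected. With classical statistics, Dunnett's test was run here for the cluster members alone, so miR-25 was not tested as in the paper. Among other miRNAs known as E2F targets, those listed here were miR-15b and miR-16, which restrain the cell cycle. They had changes of 0.14 and 0.12 in Rb-depleted primary cells. In secondary cells both were at 0.34 (adjusted p = 0.185 and 0.145 by limma).

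Averaged over the 6 guide arms after centring each miRNA on its own mean, the cluster stood at -0.21 and -0.07 on the control arrays, -0.02 and -0.04 on the Rb-depleted primary arrays, and -0.01, 0.22 and 0.13 on the secondary arrays. Among the members the arm closest to this profile was miR-18a, at a root mean square difference of 0.053 on the log2 scale over the 7 arrays, and miR-17 and miR-19a were the furthest, both at 0.19. Of the 243 other miRNAs the closest were miR-872 at 0.032, miR-26a at 0.086 and miR-214 at 0.089. The points of every profile come from the same 7 arrays and share their normalization.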

How the data were processed

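MiRNA was measured on 7 Agilent 1-colour mouse miRNA arrays (8x15K, release 15). The deposited table holds log2 values that the authors quantile-normalized in GeneSpring, for 252 mouse miRNAs and for 11 control rows, which were left out here. They also deposited, per the file headers, the scanner's intensity values from Feature Extraction 11.0.1.1, whereas the submitters' processing notes name version 10.7.3.1. Table names were matched to scanner names by recomputing the normalization over 718 features, which gave the deposited values within 3.24e-06.

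The log2 values of all 7 arrays were fitted together, with a mean per group, in limma 3.58.1 (R 4.3.3), with Benjamini-Hochberg adjustment over 252 miRNAs. The study's selection, a one-way test at an adjusted p under 0.1 followed by Dunnett's test at 0.05, was run here with limma's moderated statistics, and with classical ones as an alternative. Arm differences were compared with exact permutation tests, two-sided. Scripts were run in Python 3.11.15 and tested on simulated data. The arrays hold intensities and no counts, so their number limits the precision; p-values measure the spread between these arrays.

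The members and lists were chosen with earlier results of these data known. Named besides the members were related miRNAs of the X and chromosome 5 clusters or with a member's seed, miR-15b and miR-16 as known E2F targets (the miR-449 family was planned and has no row in the table), and the 3 miRNAs whose profile was closest to that of the guide arms. miR-18a* was not among the 8 names first listed and was added because its hairpin is in the cluster. Loci are from GENCODE for NCBIM37, and sequences from RefSeq (GRCm38.p6), which matched all 16 miRNAs of these lists. Alternatives were scaling to the 75th percentile (of the table's or of all mouse miRNAs), quantile normalization of the table alone, no normalization, all miRNAs detected on any array with a floor of 1 intensity unit, leaving out each array, trend and robust moderation, array weights, the replicate number as a block, slide as a term, other thresholds and classical tests. Leaving out miR-18a*, and its arm comparison, were added after the data were seen.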

Additional observations from a re-analysis of the deposited data

Results flagged for a closer look

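Against control, the log2 change of miR-19a was -0.20 in the Rb-depleted primary cells and 0.36 in the secondary cells, and these changes differed by 0.56. For miR-19b they were -0.06 and 0.37, which differed by 0.43. Each difference was past an adjusted p of 0.05 in limma's test of the difference itself. In the normalized values each miRNA was higher in 3 of 3 secondary arrays than in both Rb-depleted primary arrays. With slide as a term neither passed, and slide moved with the secondary cells. No group held the 4 arrays needed to look for single arrays that stand apart.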

How the results depend on the processing

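Precision is limited by the number of arrays and, for miR-18a* and miR-20a*, by faint signals. The miR-18a* signal of secondary replicate 1 also lacked a probe that was summed on the other arrays. The count of called members stayed at 0 in Rb-depleted primary against control cells under all alternatives tried. In secondary against control cells 3 members were called, all higher, and 0 when scaled to the 75th percentile of the table's miRNAs, 0 with slide as a term and 0 to 3 when an array was left out. Without normalization 1 was called, and it was another member in the other direction, miR-17 at -0.49. Scaled to all mouse miRNAs 2 were called, miR-20a* and, in place of miR-18a and miR-19b, miR-19a. Between the Rb-depleted groups 2 were called, 1 when scaled to the 75th percentile of the table's or of all mouse miRNAs, 0 without normalization, 1 with a floor of 1, 1 with array weights, 0 with slide as a term and 0 to 1 when an array was left out. Past the F-test and both Dunnett comparisons was 1 member, 0 when scaled to the 75th percentile of the table's miRNAs, 2 when scaled to that of all mouse miRNAs, 0 without normalization, 2 with array weights, 0 with slide as a term and 0 to 2 when an array was left out (0 without control replicate 1, Rb-depleted primary replicate 2 or secondary replicates 2 or 3, and 2 without secondary replicate 1). A group left with 1 array is assumed to vary like the others. Trend and robust moderation, an adjusted p under 0.1, classical tests and leaving out miR-18a* kept these counts within 1.5 times. Over all 252 miRNAs, 4, 57 and 51 were called in the 3 comparisons, against 0, 29 and 34 when scaled to the table's miRNAs, 27, 114 and 45 without normalization, and 0, 6 and 0 with slide as a term.

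The deviations of same-numbered arrays from their group means had correlations of 0.13, 0.07, 0.04, 0.13, -0.08 and -0.14. In a group of 2 arrays the deviations mirror each other, so the 0.13 of control with Rb-depleted primary arrays is 1 value for both numbers. With so few arrays, after normalization, these correlations cannot settle whether the numbers pair the arrays. With the replicate block, in which secondary replicate 3 has no partner, 0 members were called in secondary against control, 0 between the Rb-depleted groups and 0 past both Dunnett comparisons, and over all 252 miRNAs the calls were 0, 4 and 0.

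The median change of the members in Rb-depleted primary cells moved from 0.28 to 0.39 when scaled to all mouse miRNAs and to 0.0095 without normalization. In secondary against control cells it moved from 0.33 to -0.13 without normalization and to 0.20 with slide as a term. Between the Rb-depleted groups it moved from 0.04 to -0.14 without normalization, to -0.088 with slide as a term, to -0.037 scaled to all mouse miRNAs, to -0.0039 with array weights and to 0.077 scaled to the table's miRNAs, so its sign was not settled, and it ranged from -0.015 (without secondary replicate 2) to 0.19 (without secondary replicate 1) when an array was left out, with 0.18 without Rb-depleted primary replicate 2.

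Single changes of members reversed 39 times over all alternatives. Of these, 14 came without normalization, the most of any alternative, and the median change of all miRNAs there was -0.26, -0.46 and -0.18. In Rb-depleted primary cells the reversals without normalization were miR-17 (-0.060) and miR-18a (-0.053). In secondary against control cells they were miR-17* (-0.11), miR-18a (-0.13), miR-18a* (-0.18), miR-19a (-0.0030), miR-19b (-0.11), miR-20a (-0.24), miR-20a* (-0.035) and miR-92a (-0.27). Between the Rb-depleted groups they were miR-18a (-0.075), miR-18a* (-0.34), miR-20a* (-0.078) and miR-92a (-0.39).

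Scaled to the table's miRNAs, miR-19b in Rb-depleted primary cells was 0.035, and between the Rb-depleted groups miR-17* was 0.077, miR-18a* -0.12 and miR-92a -0.17. Scaled to all mouse miRNAs, miR-19a and miR-19b in Rb-depleted primary cells were 0.0064 and 0.18, and between the Rb-depleted groups miR-18a* was -0.23 and miR-92a -0.29. With quantile normalization of the table alone, miR-17 in secondary against control cells was 0.0029 and miR-18a* between the Rb-depleted groups -0.010. With array weights, miR-18a* and miR-92a between the Rb-depleted groups were -0.054 and -0.0039. With the replicate block, miR-18a* between the Rb-depleted groups was -0.11. With slide as a term, miR-20a in secondary against control cells was -0.059, and between the Rb-depleted groups miR-18a* was -0.48 and miR-92a -0.09.

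When an array was left out, miR-17 in secondary against control cells ranged from -0.078 to 0.075, and between the Rb-depleted groups miR-18a* ranged from -0.16 to 0.30, miR-20a from -0.091 to 0.087 and miR-92a from -0.036 to 0.079. The arm difference of miR-17 in Rb-depleted primary against control cells ranged from -0.18 to 0.0073, and that of miR-18a between the Rb-depleted groups from -0.11 to 0.30. The arm difference of miR-18a in secondary against control cells was 0.050 without normalization and under either scaling to the 75th percentile, which give the same value by construction. It rests in part on the miR-18a* signal of secondary replicate 1, which lacked a probe, and the sign with that probe included was not tested. For the other changes named here the cause was not tested.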
